A study of Mus musculus with 6 samples.

Results

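The tripartite motif (TRIM) family was followed in colon mucosa of mice with and without microRNA-21. Members were all probes whose deposited gene symbol begins with Trim and a digit, which gave 74 of the 25697 probes in the table, for 50 of 18138 gene symbols. Total RNA of the mucosa was hybridised to 1-colour bead arrays, 1 sample per array, with 3 samples of wild type (WT) mice of the c57BL/6 strain obtained from Taconic and 3 samples of miR-21-/- mice (KO) on a C57BL/6 background, which came from another laboratory. None of the mice was described as treated, and the miR-21-/- mice are stated not to develop colitis on their own. Neither an age nor the number of animals behind a sample is given, and nothing says that replicates were separate animals. The p-values therefore reflect only the variation among these 6 samples, some of which may be technical. Source and genotype coincide, so the 2 cannot be told apart in any difference given here.

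TRIM proteins are mostly E3 ubiquitin ligases built from a RING finger, B-box zinc fingers and a coiled coil, followed by a variable C-terminal part such as a PRY-SPRY, NHL or bromodomain that selects the partner. Many are induced by interferon and tune sensing of microbial nucleic acids, NF-kB signalling and inflammasomes, while others act in chromatin, the cytoskeleton or muscle. In the gut, family members are known both from epithelium and from immune cells. MicroRNA-21 silences transcripts that pair with its seed, bases 2 to 8, shown here in capitals because this is the molecule the KO mice lack (RefSeq, GRCm38.p6, chr11:86584120-86584141, minus strand).
mmu-miR-21a-5p: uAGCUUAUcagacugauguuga
The level of the microRNA itself and pairing of the seed with TRIM transcripts were not analysed here.

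Arrays had median intensities of 97 to 115 and detected 50.4 to 54.6 percent of probes (detection p-value under 0.05). The dimmest array of either group was its replicate 3. Arrays correlated at r = 0.981 to 0.990 within a group and 0.956 to 0.972 between groups, across probes. Of 7 epithelial markers with a probe, all were detected on all 6 arrays, and their summed normalized intensity was 41803 to 43638 in WT and 42234 to 44645 in KO, a sum that the brightest probes, Lgals4 and Krt8, dominate. The samples also differed in other cell types. The summed level of B and plasma cell markers was 708 to 3177 in WT and 254 to 326 in KO (5 of 7 lower, 0 higher), that of T and NK cell markers 622 to 1247 and 344 to 457 (6 of 10 lower, 0 higher; Cd8a detected on no array), and that of macrophage and monocyte markers 4676 to 10086 and 2965 to 4518 (3 of 9 lower, 0 higher; Itgam detected on no array). Adipocyte markers went the other way, at 197 to 2804 in WT and 5643 to 16694 in KO (5 of 6 higher, 0 lower). Smooth muscle markers were at 21332 to 40491 and 38031 to 54114, with overlapping groups (1 of 7 higher, 0 lower). Over all genes by their main probe, 7.62 percent were lower and 8.05 percent higher (adjusted p under 0.05 from limma). The smooth muscle count cannot be set apart from that share. Ms4a1, Cd4, Cd8a, Itgam and Plin1 are included in these denominators although they had no test. Of 5 erythroid markers, 1 was lower and 1 higher in KO, both haemoglobin genes of chromosome 7. Hbb-b1 was lower (adjusted p = 0.00369 from limma), and Hbb-b2, detected on 0 WT and 3 KO arrays, was higher (adjusted p = 0.0129). The cause of this opposite change was not tested. In such bulk samples, fewer cells of a type and less RNA per cell cannot be told apart, and the part of cell composition in the TRIM differences below was not tested.

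Of the 74 TRIM probes, 27 were detected on no array, 10 on 1 or 2 arrays, 4 on 3 to 5 arrays and 33 on all 6. The 37 probes detected on at least 3 arrays, for 29 genes, were tested with limma among 13737 probes of the whole table. A probe was called where its adjusted p was under 0.05, and "fell" and "rose" are used for called probes, KO against WT. In KO, 6 TRIM probes fell and 2 rose (21.6 percent of those tested), beside 15.1 percent of all tested probes called. The lower calls were 16.2 percent of tested TRIM probes beside 7.55 percent of all, and the higher calls 5.41 percent beside 7.53 percent. The probes that fell were those of Trim30a, Trim40, Trim16, Trim31, Trim21 and Trim23, and the probes that rose were those of Trim2 and Trim3. The median log2 difference over tested TRIM probes was -0.13, against 0.03 over all tested probes. For 15 of the 37 the KO arrays all lay on one side of the WT arrays (40.5 percent, beside 36.4 percent of all tested probes), which is close to the background. By direction, KO lay above WT for 4 of the 37 and below for 11 of the 37. Over all tested probes, more lay above (19.4 percent) than below (17 percent).

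**Figure D1:**
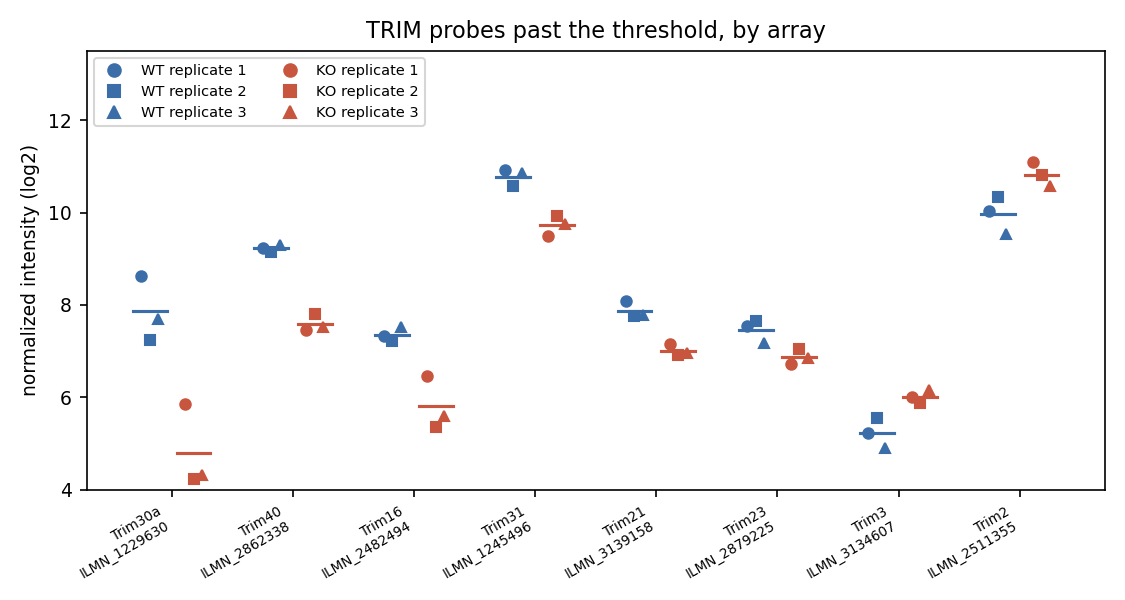
Normalized log2 intensity of the 8 TRIM probes past the threshold on each of the 6 arrays (blue, WT; red, KO; the marker shape gives the replicate number and the line the group mean). For each of the 8 probes, the 3 KO arrays lie on one side of the 3 WT arrays, and Trim30a shows the widest gap and the widest spread within groups. Levels of different probes are not comparable with each other.

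The TRIM30 group gave the largest difference. Trim30a, deposited under the older symbol Trim30, encodes a mouse TRIM protein that is induced by Toll-like receptor signals and promotes loss of the adaptors TAB2 and TAB3, which restrains NF-kB. Its only probe (ILMN_1229630, chromosome 7) gave normalized log2 intensities of 8.63, 7.24 and 7.71 in WT, and of 5.85, 4.24 and 4.33 in KO, in the order of replicates 1 to 3 as throughout. Every WT array lay above every KO array, and KO replicate 1 was the only KO array on which the probe was detected. Trim30a fell 8.29-fold (log2 difference -3.05 with an SE of 0.45, as ± hereafter, 3 arrays a group, adjusted p = 0.00606). The unprocessed intensities were 509.2, 274.7 and 207.6 in WT and 148.7, 96.8 and 92.8 in KO. As 2 of the 3 KO readings were not above background, the size of the fall depends on how background is treated, and without background correction the log2 difference was -1.39.

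The sequence upstream of Trim30a is shown because its nearest measured neighbour, Trim30d, moved with it and shares most of it. Each run is the 250 bases before an annotated start (RefSeq, GRCm38.p6, gene strand), and capitals mark matches to the core of the interferon-stimulated response element, taken as GAAA, any 2 bases and GAAA again and searched on both strands. Trim30a lies at chr7:104465194-104465443 (minus strand) and Trim30d at chr7:104507850-104508099 (minus strand).
Trim30a: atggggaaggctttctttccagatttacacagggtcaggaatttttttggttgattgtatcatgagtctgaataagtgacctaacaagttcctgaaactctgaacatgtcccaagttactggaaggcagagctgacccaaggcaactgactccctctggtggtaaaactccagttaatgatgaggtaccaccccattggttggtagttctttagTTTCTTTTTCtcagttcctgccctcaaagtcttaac
Trim30d: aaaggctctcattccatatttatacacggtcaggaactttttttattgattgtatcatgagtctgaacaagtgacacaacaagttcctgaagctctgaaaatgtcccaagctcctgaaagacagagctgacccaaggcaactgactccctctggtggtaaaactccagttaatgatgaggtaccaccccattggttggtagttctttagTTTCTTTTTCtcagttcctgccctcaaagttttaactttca
The match TTTCTTTTTC begins 36 bases before the Trim30a start and 41 bases before the Trim30d start. Over 245 aligned bases of the 2 runs, 226 were identical (92.2 percent). A window at another annotated Trim30a start holds no match. The motif occurs in 2.98 percent of 32851 windows of this length, and in windows of 2 of the 38 TRIM member genes with an upstream sequence, Trim30a and Trim26. Trim26 did not pass (log2 difference 0.08 ± 0.15, adjusted p = 0.737). A match is a description of letters and not evidence that a factor binds.

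Trim30d and its relatives carry clone names in the deposited table and so fall outside the member rule. Looked up through the gene table, the Trim30d probe (ILMN_2695412) read 7.70, 6.76 and 6.71 in WT and 6.05, 4.62 and 4.69 in KO. As for Trim30a, WT replicate 1 was the highest WT array and KO replicate 1 the highest KO array. Trim30d fell 3.83-fold (log2 difference -1.94 ± 0.39, adjusted p = 0.0155). Of the 2 Trim30b probes, ILMN_2689651 did not pass (log2 difference -0.33 ± 0.16, adjusted p = 0.173), with detection on 2 WT arrays and 1 KO array, and the other was detected on no array, nor were the probes of Trim12c and Trim30e-ps1. These genes are close copies, the probe sequences were not used here, and signal shared between Trim30a and Trim30d cannot be told apart from separate changes.

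Interferon pathway genes were set beside them, since many TRIM genes respond to interferon. The 3 genes shown were picked after their values were seen. Usp18, an interferon-induced ISG15 protease, read 8.63, 6.46 and 7.54 in WT and 5.95, 6.04 and 6.998 in KO. Its groups overlapped and it did not pass (log2 difference -1.21 ± 0.48, adjusted p = 0.117). Isg15, a ubiquitin-like modifier, read 8.39, 5.53 and 6.84 in WT and 6.31, 6.45 and 7.08 in KO. WT replicate 1 was the highest array for both, as it was for Trim30a, whereas among KO arrays replicate 3 was the highest for Usp18 and Isg15 and replicate 1 for Trim30a.

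**Figure D2:**
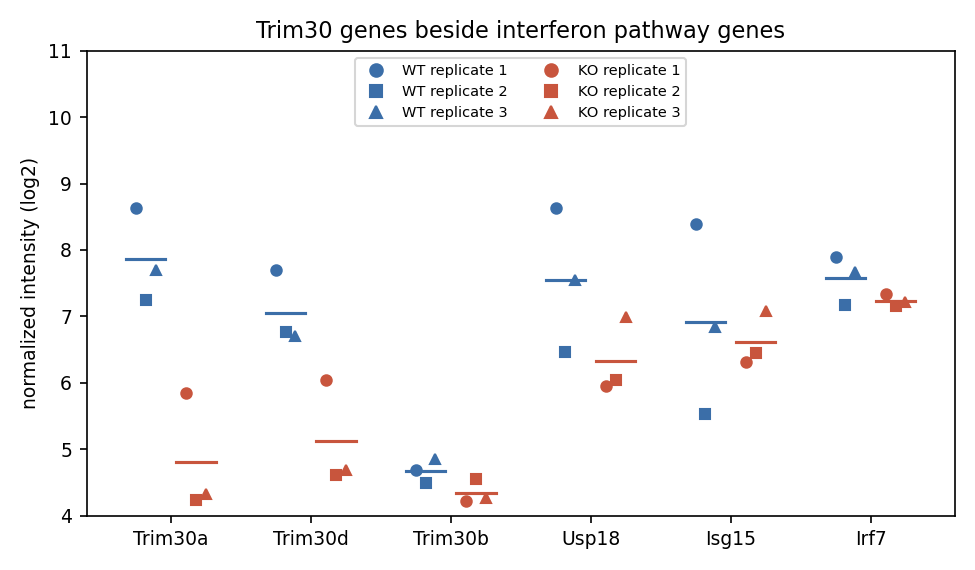
Normalized log2 intensity by array of Trim30a, the tested Trim30d and Trim30b probes and 3 interferon pathway genes (blue, WT; red, KO; shape, replicate number; line, group mean). WT and KO arrays are apart for Trim30a and Trim30d and overlap for Trim30b, Usp18, Isg15 and Irf7. Of the interferon list but not shown, Irf1, Ifngr1 and Uba7 lay lower on all KO arrays than on any WT array, and Tyk2 higher.

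Trim21, the cytosolic antibody receptor also known as Ro52, was measured by 3 probes. Probe ILMN_3139158 read 8.08, 7.76 and 7.78 in WT and 7.14, 6.91 and 6.96 in KO. The groups did not overlap, and it fell 1.83-fold (log2 difference -0.87 ± 0.15, adjusted p = 0.00977). That call was lost under median scaling (-0.81, adjusted p = 0.106) and without KO replicate 2. ILMN_3061663 was detected on 1 array of each group and ILMN_1214544 on 1 WT array only, so neither was tested. Trim68, on the same chromosome, did not pass (log2 difference 0.22 ± 0.21, adjusted p = 0.497, detected on 2 of 3 WT arrays). Trim6 was detected on 2 KO arrays and not tested.

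The MHC region of chromosome 17 carries a second TRIM cluster, in which Trim40 and Trim31 stand next to each other in gene order. Trim40, known from the gastrointestinal tract as a brake on NF-kB, read 9.23, 9.14 and 9.30 in WT and 7.45, 7.80 and 7.53 in KO on probe ILMN_2862338. The lowest WT array lay well above the highest KO array. It fell 3.10-fold (log2 difference -1.63 ± 0.15, adjusted p = 0.000525). Trim31, a ligase that targets MAVS and NLRP3 and is expressed in intestinal epithelium, read 10.92, 10.56 and 10.85 in WT and 9.49, 9.93 and 9.75 in KO on probe ILMN_1245496. The groups did not overlap, and Trim31 fell 2.08-fold (log2 difference -1.06 ± 0.17, adjusted p = 0.00735). Of the 7 epithelial markers, Vil1, a microvillus protein, fell (log2 difference -1.15 ± 0.17) and the other 6 did not pass. Among those 6, Krt19, an epithelial keratin, lay higher on all KO arrays (0.49 ± 0.15, adjusted p = 0.059). Trim39 did not pass (log2 difference 0.18 ± 0.17, adjusted p = 0.519), nor did Trim26. The probes of Trim10 were detected on no array, and those of Trim29 on too few to be tested.

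The 250 bases before the starts of this adjacent pair are given for comparison, Trim40 at chr17:36890126-36890375 (minus strand) and Trim31 at chr17:36897880-36898129 (plus strand), both GRCm38.p6 from RefSeq. Capitals mark matches to TTCNNNGAA, the core of the gamma-activated site of interferon-responsive genes, which reads the same on both strands.
Trim40: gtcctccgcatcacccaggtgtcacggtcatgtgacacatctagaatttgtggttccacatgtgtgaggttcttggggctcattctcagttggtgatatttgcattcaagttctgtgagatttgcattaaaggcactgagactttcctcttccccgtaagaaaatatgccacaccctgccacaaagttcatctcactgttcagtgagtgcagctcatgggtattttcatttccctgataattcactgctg
Trim31: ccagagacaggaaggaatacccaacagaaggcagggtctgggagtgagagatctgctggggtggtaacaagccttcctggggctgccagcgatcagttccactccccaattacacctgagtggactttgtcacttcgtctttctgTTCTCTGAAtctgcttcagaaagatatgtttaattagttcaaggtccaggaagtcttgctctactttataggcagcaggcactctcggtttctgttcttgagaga
Trim31 holds 1 match, TTCTCTGAA, beginning 105 bases before its start, and Trim40 holds none. The motif occurs in 7.02 percent of all such windows and in windows of 3 of the 38 TRIM member genes, the others being Trim45 and Trim46. Neither of those passed, at log2 differences of 0.18 ± 0.17 and -0.29 ± 0.15.

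Genes flanking the TRIM clusters were read from gene order in the same fit, 10 protein-coding genes on either side of 5 of the called genes, a look added after the values were seen. Over all genes, by the main probe, 8.05 percent rose and 7.62 percent fell. Around Trim31, 6 of 20 neighbours had a tested probe, and 2 fell, Trim40 and the phosphatase inhibitor Ppp1r11 (log2 difference -0.63 ± 0.13, adjusted p = 0.0153). Znrd1 (-0.31 ± 0.13, adjusted p = 0.142) and Trim26 did not pass. Around Trim30a the neighbours are mainly other TRIM genes on one side and olfactory receptor genes on the other. Only Trim30d and Trim30b of these 20 had a tested probe, and Trim30d alone was called. Around Trim3, 12 of 20 neighbours were tested and 3 rose, among them Arfip2, which stands directly beside it (log2 difference 0.79 ± 0.13, adjusted p = 0.00918). The other 2 were Cavin3 (0.95 ± 0.17) and Smpd1 (0.61 ± 0.17). Around Trim16, which fell, 11 neighbours were tested, of which Ncor1 (0.86 ± 0.16) and Cox10 (0.70 ± 0.16) rose and Mmgt2 (-0.64 ± 0.16) fell. Around Trim21, which fell, 6 were tested, of which Stim1 rose (0.65 ± 0.15) and 0 fell. Called neighbours thus moved with the TRIM gene around Trim30a, Trim31 and Trim3, in both directions around Trim16, and against it around Trim21. Around Trim30a, however, this rests on Trim30d alone, whose signal may be shared with Trim30a. Around Trim31 it rests on Ppp1r11 and on Trim40, itself a called member. The flanks of Trim2 and Trim23 were not examined.

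**Figure D3:**
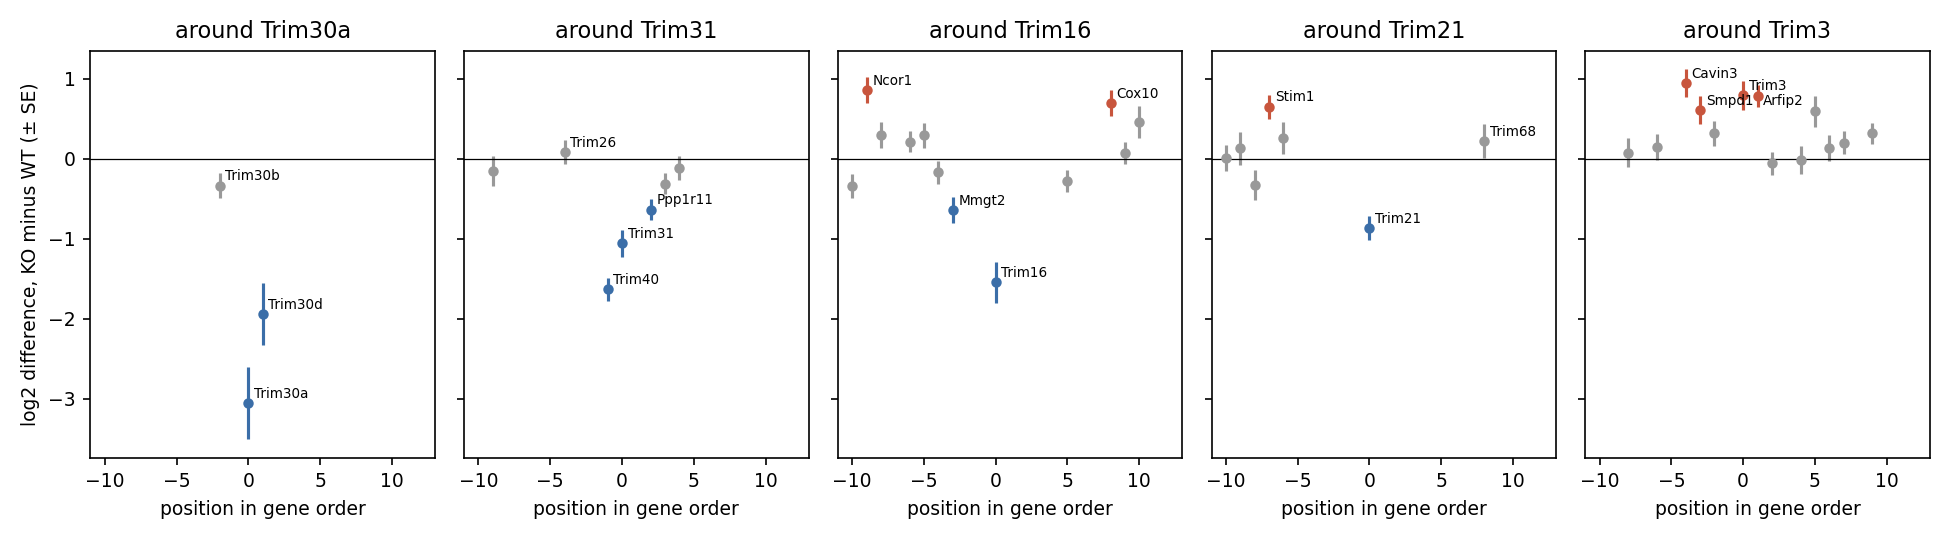
Log2 difference, KO minus WT, with its SE, of tested genes within 10 protein-coding genes of Trim30a, Trim31, Trim16, Trim21 and Trim3, by position in gene order (blue, fell; red, rose; grey, did not pass; names for called genes and TRIM genes). Trim30a and Trim30d, and Trim40 and Trim31, are adjacent pairs that fell, and called neighbours of Trim3 rose, as did 2 of 3 around Trim16 and the 1 around Trim21, which themselves fell.

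Chromosome 11 carries Mir21a and several TRIM genes. Trim37, the nearest of these with 8 protein-coding genes between, was detected on 1 array of each group and could not be tested. Trim25, which ubiquitinates the RNA sensor RIG-I and has 36 genes between it and Mir21a, read 4.61, 5.01 and 4.99 in WT and 4.59, 4.80 and 4.66 in KO. Its groups overlapped (log2 difference -0.19 ± 0.16, adjusted p = 0.435). Trim16, which fell, lies much farther away, with 423 genes between.

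Trim16 lacks a RING finger and takes part in autophagy of damaged membranes, as known from human cells. Probe ILMN_2482494 read 7.32, 7.21 and 7.52 in WT and 6.46, 5.36 and 5.60 in KO. WT arrays lay close together and KO replicate 1 was the highest KO array, below every WT array. It fell 2.91-fold (log2 difference -1.54 ± 0.26, adjusted p = 0.00918), and by a log2 difference of -0.74 without background correction. On the 4 brighter arrays alone the difference was -1.35 with an adjusted p of 0.0643.

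Among the other members linked to innate signalling, 1 of 9 tested probes fell and 0 rose, a share near the 7.55 percent of all tested probes that fell. At an unadjusted p under 0.05 there were 2, a level that 3472 of 10380 genes reached by their main probe. Trim23, which carries an ARF-type GTPase domain, had 3 tested probes. ILMN_2879225 read 7.54, 7.66 and 7.17 in WT and 6.73, 7.05 and 6.86 in KO. These groups were apart, and the probe fell 1.495-fold (log2 difference -0.58 ± 0.17, adjusted p = 0.0482). ILMN_2879221 had a difference of similar size that did not pass (-0.52 ± 0.19, adjusted p = 0.0966), and ILMN_2455830 had -0.08 ± 0.13 (adjusted p = 0.716). The Trim23 call was lost in 9 of 17 other ways of processing, median scaling (adjusted p = 0.382) among them. Trim8, a SOCS1 partner, was at 0.12 ± 0.13, Trim56, a regulator of STING signalling, at -0.08 ± 0.16, Trim62 at -0.23 ± 0.14 and Trim65, which acts on the RNA sensor MDA5, at -0.18 ± 0.13, all as log2 differences that did not pass. The 95 percent intervals of these 4 ran from -0.53 at the low end of Trim62 to 0.41 at the high end of Trim8. They cover only the variation among these 6 samples. Trim62 and Trim65 were also dim, with group means of 4.73 to 5.27, and differences near background are understated on this scale. Trim13 and Trim14 were detected on no array.

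The NHL-repeat members gave the only higher calls. Trim2, a neuronal ligase of neurofilament light chain, was measured by 2 tested probes. ILMN_2511355 read 10.04, 10.33 and 9.53 in WT and 11.09, 10.80 and 10.57 in KO. All KO arrays lay above all WT arrays, and it rose 1.81-fold (log2 difference 0.85 ± 0.22, adjusted p = 0.0329). ILMN_2445505 read 5.21, 5.38 and 5.58 in WT and 4.91, 4.98 and 4.83 in KO. This probe lay lower on all KO arrays and just missed the threshold (log2 difference -0.49 ± 0.15, adjusted p = 0.0529). The 2 probes thus differed in their change by 1.34 on the log2 scale, with the groups apart in the within-array difference (exact two-sided permutation p = 0.1, the smallest that 3 against 3 arrays allow, and 0.333 adjusted over 10 probe pairs).

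Trim3, a ligase of neurons that binds myosin V, also had 2 tested probes. ILMN_3134607 read 5.23, 5.55 and 4.90 in WT and 6.02, 5.89 and 6.15 in KO. KO lay above WT throughout, and it rose 1.73-fold (log2 difference 0.79 ± 0.18, adjusted p = 0.0236). ILMN_1259939 read 5.08, 5.29 and 4.75 in WT and 5.15, 4.78 and 5.05 in KO, with overlapping groups (log2 difference -0.04 ± 0.18, adjusted p = 0.891). The third Trim3 probe was detected on no array. Which transcripts each probe reads was not analysed here. Neither higher call was stable: that of Trim2 was lost in 7 and that of Trim3 in 8 of 17 other ways of processing, including median scaling (adjusted p = 0.246 and 0.0906), and Trim3 had a log2 difference of 0.26 without background correction. Beside them, the summed level of 5 neuron and enteric glia markers was 174 to 250 in WT and 267 to 300 in KO, with S100b detected on no array. The part of nerve tissue in the Trim2 and Trim3 calls was not tested. Trim32, a ligase mutated in a human limb-girdle muscular dystrophy, did not pass on either probe (-0.37 ± 0.19 and -0.20 ± 0.13).

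**Figure D4:**
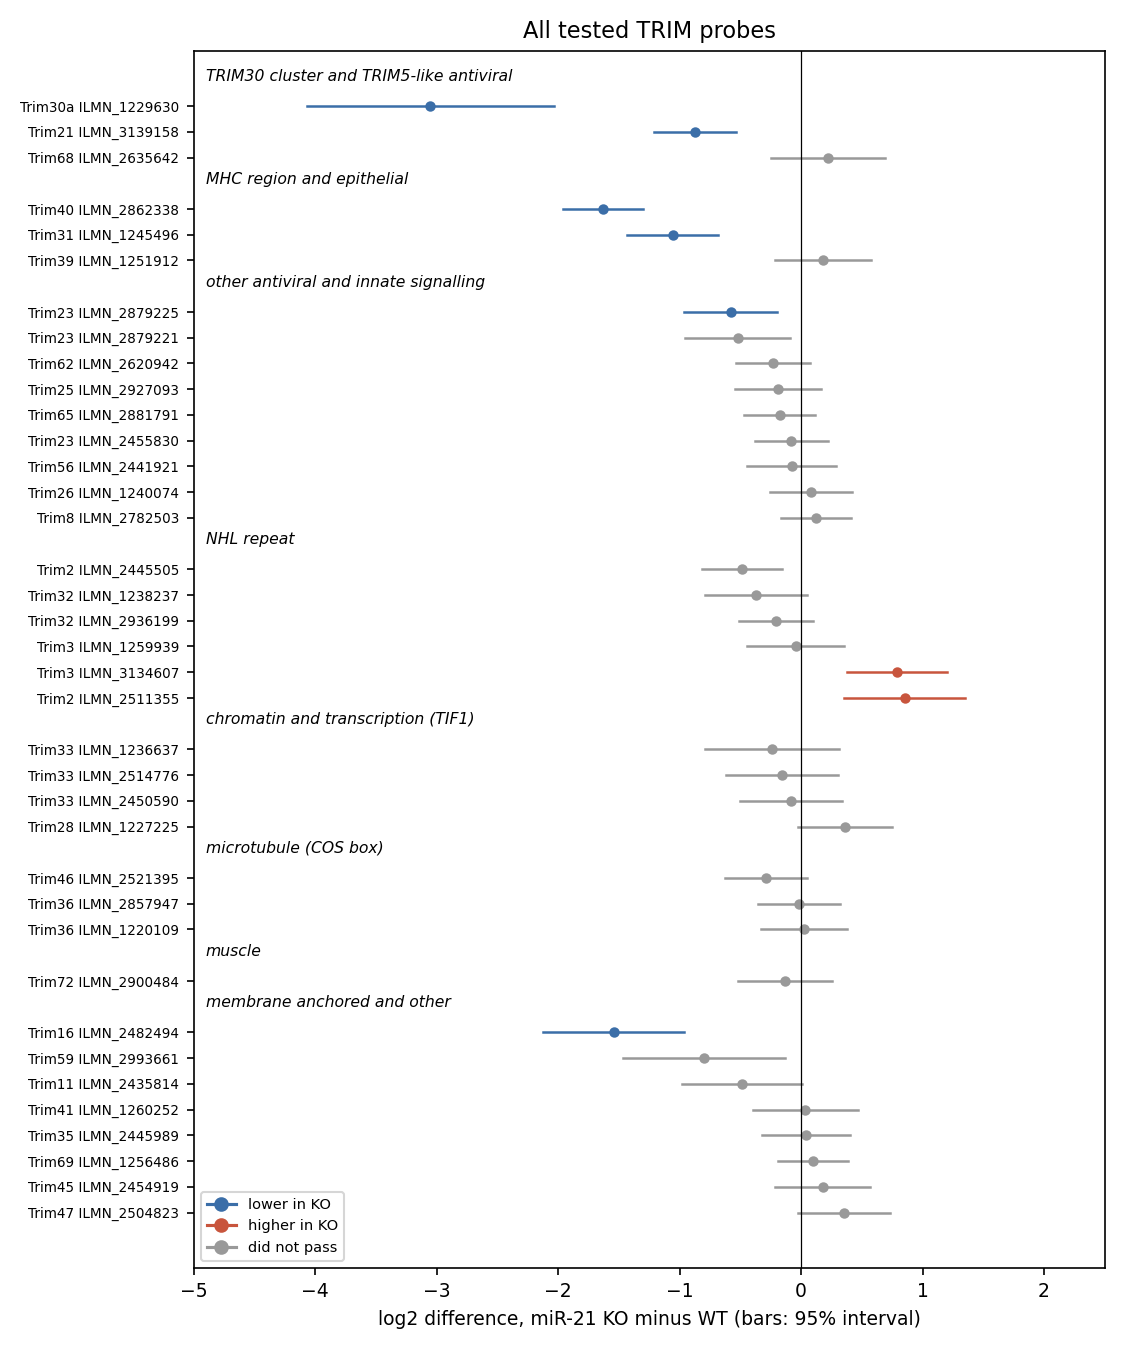
Log2 difference, KO minus WT, of all 37 tested TRIM probes with 95 percent intervals, grouped by role (blue, fell; red, rose; grey, did not pass). Calls stand in the TRIM30, MHC region, innate signalling, NHL and remaining groups. There were none among the chromatin, microtubule and muscle members, with only 4, 3 and 1 tested probes, beside 15.1 percent of all tested probes called.

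No probe of the chromatin members was called: 0 of 4 tested passed with limma, also 0 at an unadjusted p under 0.05. Over all tested probes 15.1 percent were called, and 4 probes are too few to be set apart from that share. Trim28, the KAP1 corepressor, read 8.43, 8.54 and 8.33 in WT and 8.46, 8.99 and 8.93 in KO, with overlap between the groups (log2 difference 0.36 ± 0.17, adjusted p = 0.179). Trim33, a ligase of SMAD4 signalling, had 3 tested probes at log2 differences of -0.24 ± 0.25, -0.08 ± 0.19 and -0.16 ± 0.20. Probe ILMN_1236637 spanned 6.39 to 7.10 in WT and 6.20 to 6.93 in KO, a spread wider than the difference. The microtubule members Trim36, on 2 probes (0.03 ± 0.16 and -0.01 ± 0.15), and Trim46 did not pass, 0 of 3 probes with 0 at an unadjusted p under 0.05. These probes are likewise too few to be set apart from the 15.1 percent called over all.

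Of the muscle members, Trim72, a membrane repair protein of striated muscle, was detected on all 6 arrays and did not pass (log2 difference -0.13 ± 0.17, adjusted p = 0.633). The summed level of 6 skeletal muscle markers was 139 to 362 in WT and 270 to 311 in KO. Myh2, a fast myosin, rose (log2 difference 0.79 ± 0.22, adjusted p = 0.0439), and Myh1 and Myh4 were detected on no array. Trim54 and Trim63 were each detected on 1 array only.

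Among the 18 remaining genes, 8 had a tested probe and only Trim16 was called. Trim59, anchored in the endoplasmic reticulum membrane, read 7.41, 6.53 and 7.11 in WT and 5.63, 6.29 and 6.72 in KO. KO replicate 3 lay above WT replicate 2, and the difference did not pass (-0.80 ± 0.30, adjusted p = 0.0971), although it passed without WT replicate 2 and with array weights. Trim11 was at -0.49 ± 0.22 (adjusted p = 0.161) and Trim47 at 0.35 ± 0.17 (adjusted p = 0.178), with all 3 KO arrays above WT for Trim47. Trim41 (0.04 ± 0.19), Trim35 (0.04 ± 0.16, detected on 2 of 3 WT arrays), Trim69 (0.10 ± 0.13, detected on 0 of 3 WT arrays) and Trim45 did not pass. In all, 21 of the 50 genes had no tested probe, and nothing can be said of their direction.

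Genes that work with TRIM proteins were read from 3 lists, by the main probe of each gene. In the list of partners and substrates in innate sensing, 4 of 20 tested genes fell and 1 rose, beside 7.62 and 8.05 percent of all genes (median log2 difference -0.18, against 0.03 over all genes). Tab3, whose protein mouse TRIM30 targets, was measured here as RNA only, at 7.74, 7.97 and 7.49 in WT and 6.79, 7.02 and 7.11 in KO. It fell 1.70-fold (log2 difference -0.76 ± 0.17, adjusted p = 0.0196), with the groups apart. Its partner kinase Map3k7 (TAK1) fell 1.55-fold (-0.63 ± 0.15, adjusted p = 0.0234), while Tab1, which binds the same kinase, rose 1.48-fold (0.57 ± 0.14, adjusted p = 0.0316). Another Tab1 probe did not pass (0.35 ± 0.18, adjusted p = 0.202), and neither did Tab2 (0.25 ± 0.15, adjusted p = 0.291), named here for its link to TRIM30. The endotoxin receptor Tlr4 fell 1.80-fold (-0.85 ± 0.15, adjusted p = 0.00988) and the inflammasome protease Casp1 1.67-fold (-0.74 ± 0.14, adjusted p = 0.0135). The sensor Nlrp3, a target of TRIM31, was detected on no array. Tbk1 (-0.29 ± 0.13, adjusted p = 0.152) and Myd88 (-0.11 ± 0.15, adjusted p = 0.655) did not pass.

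In the interferon signalling list 2 of 15 tested genes fell and 0 rose, beside the same 7.62 and 8.05 percent of all genes (median log2 difference -0.32). At an unadjusted p under 0.05 there were 6 of these 15, beside 3472 of 10380 genes over all, so such a p was common in these data. The transcription factor Irf1 fell 1.68-fold on its main probe (-0.75 ± 0.15, adjusted p = 0.0147), and its other 4 probes fell as well, from -1.10 to -1.40. Ifngr1, a chain of the interferon gamma receptor, read 10.83, 10.84 and 10.74 in WT and 10.20, 10.44 and 9.81 in KO. It fell 1.57-fold (-0.66 ± 0.17, adjusted p = 0.0364). Irf3 (-0.05 ± 0.13) and Uba7, the ISG15-activating enzyme (-0.49 ± 0.16, adjusted p = 0.0679), did not pass. Among ubiquitin-conjugating enzymes and their partners 0 of 9 tested genes passed with limma, with 2 at an unadjusted p under 0.05, Ube2d3 (-0.42 ± 0.14) and Uba1 (0.40 ± 0.16). With 9 tested genes, these counts cannot be set apart from the shares of all genes given above. Ubb, a ubiquitin gene, was at 0.22 ± 0.14.

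**Figure D5:**
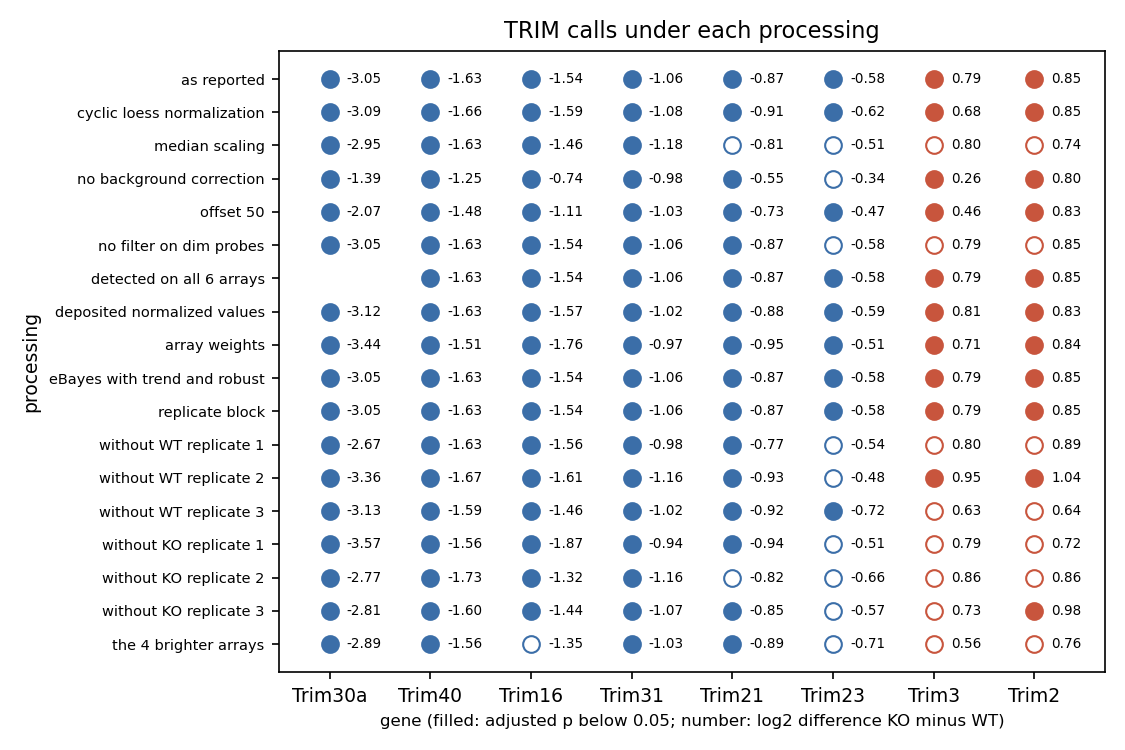
Log2 difference, KO minus WT, of the 8 called TRIM probes (columns) as reported and under 17 other ways of processing (rows). Filled points have an adjusted p under 0.05, blue is lower and red higher in KO. Trim30a, Trim40 and Trim31 are filled wherever they could be tested, and no probe changes sign.

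The stability of the calls differed between members. Trim40 and Trim31 kept their call in all 17 other ways of processing, with log2 differences from -1.73 to -1.25 and from -1.18 to -0.94. The highest adjusted p from limma was 0.01605 for Trim40 but 0.04888 for Trim31, just under the threshold. Trim30a kept its call in all 16 in which it was tested (-3.57 to -1.39), being left out where detection on all 6 arrays was required. Its highest adjusted p, 0.04936, was also just under the threshold. Trim16 kept its call in 16 of 17 and Trim21 in 15 of 17. On the 4 brighter arrays, an alternative chosen after seeing the data, 4 TRIM probes fell and 0 rose, with 6.11 percent of all tested probes called. Without KO replicate 2, the array whose removal lowered the count most, 4 fell and 0 rose, with 3.35 percent of all probes called.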

How the data were processed

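Total RNA from colon mucosa was measured on 1-colour bead arrays, 3 WT and 3 KO, grouped by sample title. Per the file headers, the authors deposited for each probe and array its average intensity (linear), the detection p-value, and the number and standard error of its beads. These intensity values were not normalized between arrays, since array medians differ. Normalized log2 values that the authors also deposited cover 18010 probes, 53 of them TRIM probes. They correlated at r = 0.9999 with the values computed here, with a median difference of 0.04, so their scale and direction were settled. Limma is named, without its version or role, per the submitters' processing notes. The number of arrays limits the precision.

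Intensities were processed with neqc in limma 3.58.1 (R 4.3.3): an offset of 16, log2 and quantile normalization after normexp background correction, whose control values were inferred from detection p-values. Detection on 3 or more arrays was required for lmFit and eBayes, KO minus WT, two-sided, without covariates, with Benjamini-Hochberg adjustment over 13737 probes and a threshold of 0.05, checked on simulated data. Fold changes are on this offset log2 scale and understate changes near background. Symbols were updated by Entrez ID (23788 probes) or RefSeq accession (685) through a GRCm38.p6 gene table, and 1224 kept the deposited symbol. The files name no build. Upstream sequences matched 38 of 50 genes.

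The members, gene lists and the naming rule were chosen with earlier results of these data known. The rule names all called TRIM probes, all TRIM30-group probes, genes whose probes disagree, for each TRIM group the 2 brightest tested probes and the one of smallest p, and of each pathway list the called genes and the 2 brightest others, and Trim probes under other symbols. Usp18, Isg15, Irf7, Tyk2, Tab2, Nlrp3, Ube2d3, Hbb-b1, Hbb-b2 and genes in the flanks were named after their values were seen. Some genes are not reported here. Alternatives covered normalization, background, offset, filter, deposited values, weights, replicate block and single arrays.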

Additional observations from a re-analysis of the deposited data

How the results depend on the processing

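Depth of signal limits what can be said: 37 of the 74 TRIM probes could not be tested for want of detection, and KO readings of Trim30a lie near background. Median scaling cut the calls over all probes from 2071 (1034 higher, 1037 lower) to 536 (193 higher, 343 lower), array weights gave 3772, the 4 brighter arrays 839, and leaving out single arrays 460 to 2116. The 6 lower TRIM calls numbered 4 to 9 over all alternatives, and 4 to 6 without single arrays. The 2 higher calls became 0 with median scaling, without the detection filter and on the 4 brighter arrays, and 0 to 2 without single arrays.

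Interferon list: higher, 0 as reported, 1 without background correction, with offset 50 and with array weights, and 0 to 1 without single arrays; lower, 2 as reported, 1 with median scaling and with no filter, 0 on the 4 brighter arrays, and 0 to 3 without single arrays. Partner list: higher, 1 as reported, 0 with median scaling and on the 4 brighter arrays, and 0 to 1 without single arrays; lower, 4 as reported, 1 with median scaling, and 1 to 5 without single arrays. Conjugating enzymes: higher, 1 with array weights; lower, 1 each with cyclic loess, no background correction, offset 50, no filter and array weights; 0 without single arrays. The cause was not tested. Fewer arrays or more tested probes cost power by construction, yet calls over all probes went from 2071 to 2116 without WT replicate 2.

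No called TRIM probe changed sign. Uncalled probes near 0 did, as log2 differences. Trim35 read -0.0209 with cyclic loess, -0.0072 with median scaling, -0.064 with array weights, -0.1512 on the 4 brighter arrays and -0.1069 to 0.113 without single arrays. Trim33 read 0.0429 with array weights on ILMN_2450590 and -0.2154 to 0.075 without single arrays, and -0.3512 to 0.0097 on ILMN_2514776. Trim36 read 0.0723 with median scaling on ILMN_2857947 and -0.1227 to 0.0629 without single arrays, and -0.0469 to 0.1695 on ILMN_1220109. Without single arrays Trim41 ranged from -0.0985 to 0.2094, Trim72 from -0.2395 to 0.005, Trim3 (ILMN_1259939) from -0.1908 to 0.0809, Trim26 from -0.0306 to 0.1652 and Trim56 from -0.1789 to 0.0639.

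Same-numbered WT and KO arrays shared little (correlations of deviations from group means 0.01, 0.15 and 0.06 across probes). These were all positive, and 0.15 was the highest of all pairs, whereas differently numbered pairs ran from -0.12 to 0.08. WT replicate 1 correlated more with KO replicate 3 (0.08) than with its own number. The number was taken as a name, and whether same-numbered arrays shared a run was not tested. With the number as a replicate block, 6 TRIM probes fell and 2 rose, and 2154 of all probes were called.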
